A study of Mus musculus with 24 samples.

Results

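The genes described here are 33 genes of the endoplasmic reticulum (ER) stress and protein folding machinery. They were chosen by symbol, from a fixed list of names, among the 48526 genes counted in T cells of OT-1 mice. This list and the other gene lists below were chosen with earlier results of these data known. Their shares set beside those of all genes are therefore descriptions. All 33 were found, and all 33 passed the filter on low counts, as did 14560 genes in all. By role, 9 fold proteins in the ER (chaperones, disulfide isomerases and an oxidase), 7 are co-chaperones of the chaperone BiP or small secreted ER factors, 5 are stress sensors or transcription factors, 7 serve ER-associated degradation (ERAD) and 5 belong to the translocon.

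OT-1 mice carry a transgenic T cell receptor, and most of their CD8 T cells recognise one ovalbumin peptide. Their spleen cells were given the peptide (2 µg/mL), some after 1 h with a Toll-like receptor (TLR) agonist, and T cells were later enriched by magnetic negative selection. The 6 groups of 4 libraries were peptide with a TLR7 agonist, peptide with a TLR2 agonist and peptide alone (OVA), each at 72 h and at 24 h. Every group received the peptide and shared its culture with the other spleen cells, so OVA is the reference for the agonists and is not a resting sample. The TLR2 agonist was Pam3CSK4 at 300 ng/mL. For TLR7 the labels list R848 at 10 µg/mL beside gardiquimod at 3 µg/mL, and do not say which one these libraries had. They also do not say whether the 4 replicates came from separate mice or cultures, so p-values measure the spread between libraries, which may be technical.

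Library totals ran from 10.5 to 27.1 M counts, and 5 libraries, here called shallow, held 11.7 M or fewer against 21.5 M or more in the others. On the first principal component, with 60.2% of the variance, 8 libraries lay between the 24 h and the 72 h ones, and they are called middle libraries below. They were OVA 72 h replicate 4, TLR2 72 h replicates 1, 3 and 4, TLR7 24 h replicates 3 and 4, and OVA 24 h replicates 1 and 3. Without them TLR2 at 72 h is 1 library, TLR7 and OVA at 24 h are 2 each, OVA at 72 h is 3, and the other groups keep 4. Libraries of one group differed from each other by more than counting noise, with a chi-square per degree of freedom of 4.58 to 251. The CD8 T cell markers were present in every group, with Cd8a at 552 to 776 CPM at 24 h and 544 to 723 CPM at 72 h, against at most 1.55 CPM for Cd4 (group means). Summed over 8 CD8 T cell markers, the means were 3451, 2862 and 3650 CPM with TLR7, TLR2 and OVA at 72 h. At 24 h they were 2112, 2108 and 2645 CPM in the same order. Cd8a went the other way in each culture, and Zap70 did so with TLR7 and OVA. The part of this rise in the time changes below was not tested.

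Proteins bound for the cell surface or for secretion enter the ER through the translocon and are folded there by BiP (Hspa5), GRP94 (Hsp90b1), the lectin chaperones calreticulin and calnexin (Calr, Canx) and disulfide isomerases. When unfolded protein builds up, 3 sensors in the ER membrane respond: IRE1 (Ern1) splices Xbp1 messenger RNA into the form that encodes an active factor, PERK (Eif2ak3) slows translation and raises ATF4, and ATF6 is cut to release a transcription factor. Chaperone genes are known targets of ATF6 and XBP1, ERAD genes of XBP1 in particular, and proteins that fail to fold are passed by ERAD to the proteasome. Activated CD8 T cells enlarge and secrete cytokines and granule proteins, which loads this machinery. Counts per gene do not tell spliced from unspliced Xbp1, and they hold neither phosphorylation nor cleavage of the sensors.

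Many chaperone promoters are known to carry the ER stress response element (ERSE), to which NF-Y binds at CCAAT and ATF6 or XBP1 at CCACG. It was searched as CCAAT, 9 bases of any kind and CCACG, on both strands of RefSeq promoters (GRCm38.p6, 250 bases before to 50 after the start). Of the 33 members, 27 had an entry, and 10 of these 27 genes held an exact match (37%), against 0.137% of all 27025 genes with an entry. The sites are shown because they are the sequence that these members share; capitals mark both ends of the element.
Hspa5: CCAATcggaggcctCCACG
Hsp90b1, farther site: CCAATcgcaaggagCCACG
Hsp90b1, nearer site: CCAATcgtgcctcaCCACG
Calr: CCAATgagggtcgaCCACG
Canx: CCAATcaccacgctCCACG
Pdia6: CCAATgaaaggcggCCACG
Ero1lb: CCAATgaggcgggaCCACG
Dnajc3: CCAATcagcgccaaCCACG
Creld2: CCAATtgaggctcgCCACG
Syvn1: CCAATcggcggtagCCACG
Derl3: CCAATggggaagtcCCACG

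The Hspa5 site began 65 bases before the start of transcription, in the window chr2:34771840-34772139 on the plus strand of the gene. In Hsp90b1 (chr10:86705395-86705694, minus strand) the sites began 212 and 107 bases before the start, the nearer one on the strand opposite to the gene. On the gene's own strand also lay the sites of Canx (145 bases before the start), Pdia6 (98), Dnajc3 (105) and Syvn1 (44). On the opposite strand lay those of Calr (162), Ero1lb (201), Creld2 (126) and Derl3 (156). The shorter parts were common: CCAAT was in 85.2% of the 27 genes and in 41.1% of all genes, and CCACG was in 81.5% of the 27 and in 35.5% of all. These letters overlap with the ERSE itself. The exact strings TGACGTGG, for XBP1, and TGATGCAAT, for ATF4, were found in 0 of the 27, against 0.714% and 0.222% of all genes. Other forms of these motifs and of the ERSE were not searched, so a gene without an exact match may still hold such a site. The Herpud1 promoter holds gttgcatca, which on the opposite strand differs from the ATF4 string only in the last base. It also holds gattgggccacg, in which CCAAT on the opposite strand lies close to CCACG, at a spacing that was not searched. Such near forms were not looked for in the other promoters, and their part was not tested. Manf, Hyou1, Atf6, Derl1, Sec61a1 and Ssr2 had no entry.

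Levels between genes were compared per kilobase of exon, in CPM (counts scaled to the library total, with TMM) divided by the summed exon length. On that scale Calr stood at 162 to 461 CPM per kilobase over the 6 group means, and it had the highest level in 4 groups. In TLR7 and OVA at 72 h the highest was P4hb, a disulfide isomerase, at 218 and 229 CPM per kilobase. Hspa5 stood at 144 to 343 CPM per kilobase. Far lower were Eif2ak3 (2.82 to 16.4), Atf6 (7.51 to 17.9), Ern1 (0.65 to 1.83), Ero1lb (1.41 to 1.96) and Derl3 (0.31 to 0.849), all in CPM per kilobase. The sensor genes Eif2ak3, Atf6 and Ern1 thus stood below Hspa5 and Calr in each group.

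The mean log2 CPM of all 33 members was 6.49 ± 0.055 in TLR7, 6.69 ± 0.041 in TLR2 and 6.47 ± 0.11 in OVA at 72 h, and 6.67 ± 0.043 in TLR7, 6.76 ± 0.049 in TLR2 and 6.67 ± 0.072 in OVA at 24 h (SD, n = 4 each). At 72 h minus 24 h it differed by -0.18 with TLR7 and -0.2 with OVA, where the libraries of the 2 times did not overlap, and by -0.077 with TLR2, where they did. Between agents it was lower with TLR7 than with TLR2 without overlap, by a difference of -0.2 at 72 h and -0.096 at 24 h, and higher with TLR2 than with OVA without overlap at 72 h (0.22). The roles differed in direction over time. The co-chaperone mean was 5.28 ± 0.051 in TLR7, 5.87 ± 0.25 in TLR2 and 5.5 ± 0.37 in OVA at 72 h, against 6.09 ± 0.26, 6.59 ± 0.035 and 6.27 ± 0.42 in TLR7, TLR2 and OVA at 24 h. The ERAD mean ran the other way, at 5.81 ± 0.019 in TLR7, 5.57 ± 0.23 in TLR2 and 5.63 ± 0.21 in OVA at 72 h, against 5.3 ± 0.29, 5.03 ± 0.024 and 5.2 ± 0.34 in TLR7, TLR2 and OVA at 24 h. A mean over chosen genes was given no test.

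**Figure D1:**
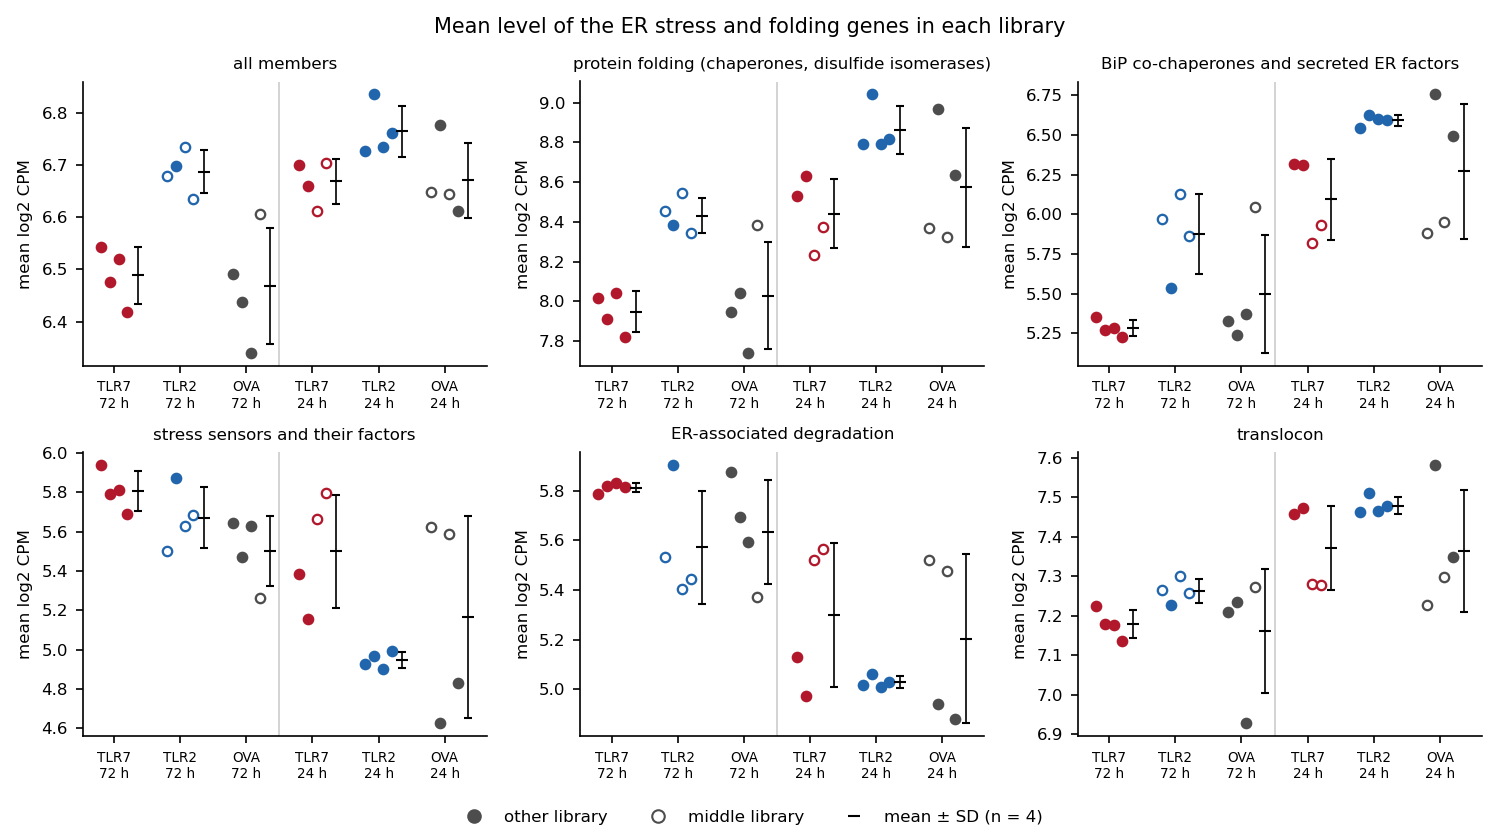
Mean log2 CPM over all 33 members and over each role (y axes) in each of the 24 libraries, by agent and time (x axis), with open points for the 8 middle libraries and bars for mean ± SD. The folding, co-chaperone and translocon means sit lower at 72 h than at 24 h in each culture, and the sensor and ERAD means higher.

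Between 24 h and 72 h, members changed in all 3 cultures, mostly downward. With the TLR7 agonist 17 of 33 members passed (edgeR's quasi-likelihood test, Benjamini-Hochberg adjusted p under 0.05 over all genes tested), 4 up and 13 down, or 51.5%, where 43.2% of all genes passed. With the TLR2 agonist 17 passed, 6 up and 11 down, against 39% of all genes. With peptide alone 12 passed, 2 up and 10 down (36.4%), against 18.6% of all genes. The median log2 fold change of the members was -0.28 with TLR7, -0.31 with TLR2 and -0.24 with OVA, and that of all genes -0.0070, -0.0065 and 0.087. With TLR7 the share of members that passed was close to that of all genes, so passing was not particular to the members there.

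Calr, Pdia3, Pdia6, Dnajb11, Creld2, Hyou1 and Ssr1 passed as lower at 72 h in each of the 3 cultures, and Edem1 as higher in each. A further 5 passed as lower in 2 cultures (Hspa5, Canx, Sdf2l1, Manf, Ssr2) and 3 as higher in 2 (Xbp1, Herpud1, Sel1l). In 1 culture Dnajb9, Dnajc3 and Atf6 were lower and Ern1, Eif2ak3 and Derl1 higher. No member passed as higher in one culture and as lower in another, and 11 passed in none. The 3 time comparisons share no library.

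**Figure D2:**
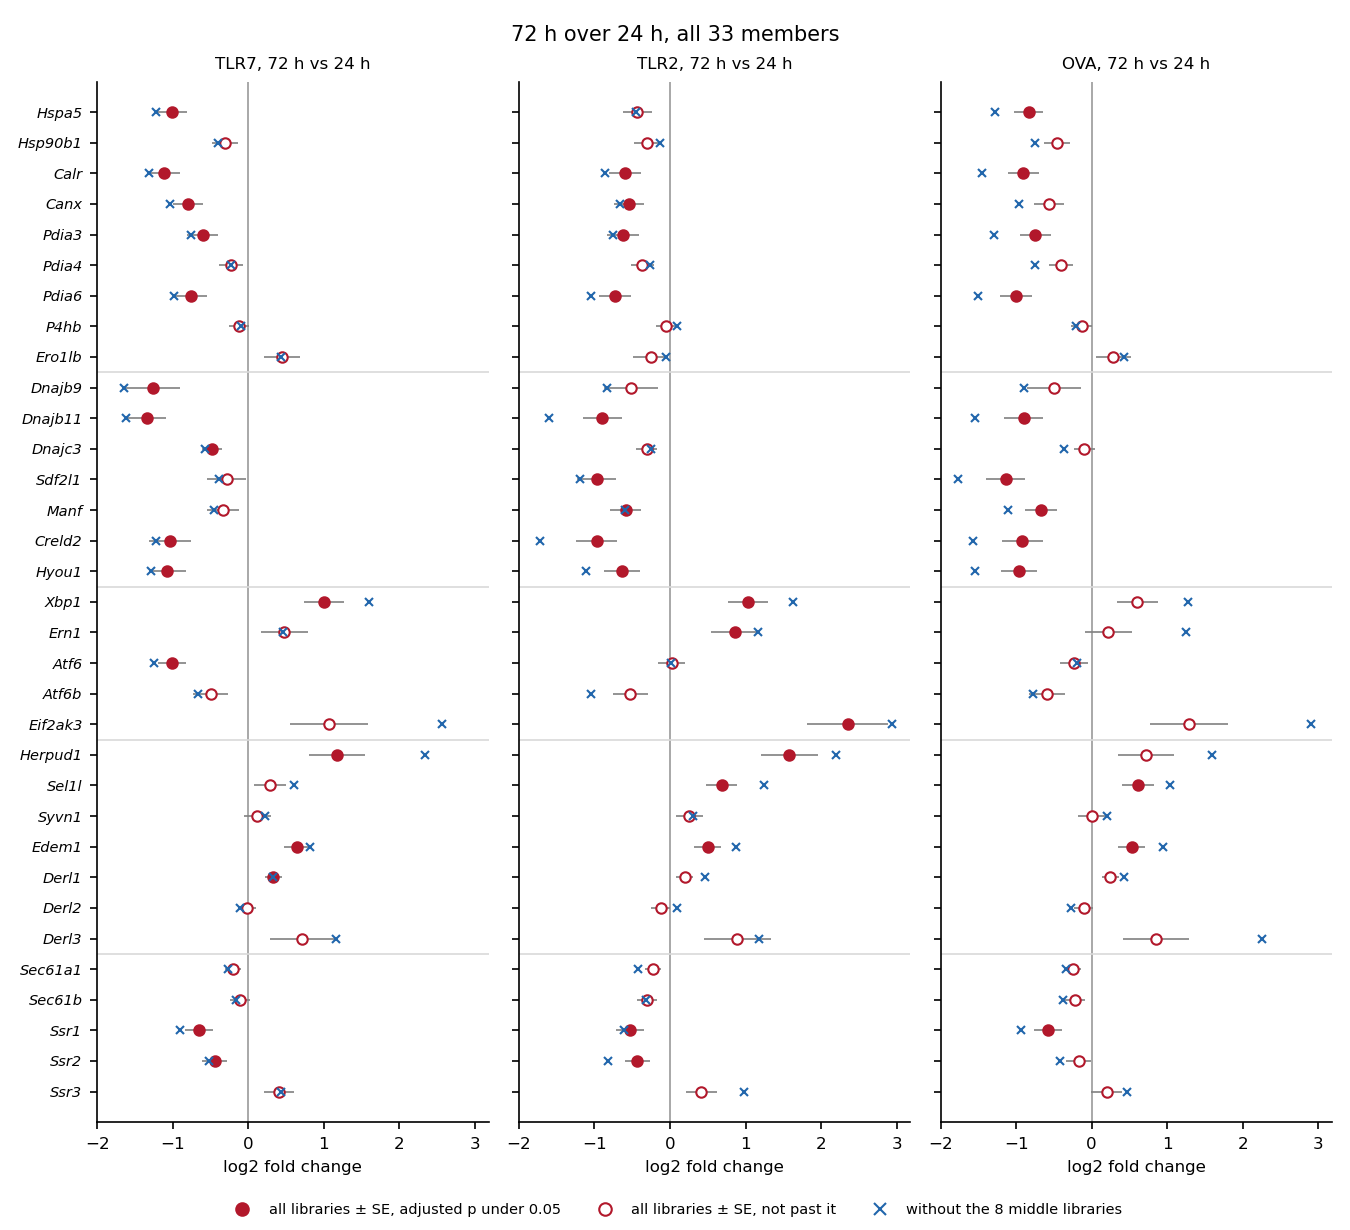
Log2 fold change of 72 h over 24 h (x axes) for the 33 members (y axis, by role) with TLR7, TLR2 and peptide alone; circles with SE bars are from all libraries, filled where the adjusted p is under 0.05, and crosses are from the fit without the 8 middle libraries. Most folding and co-chaperone genes sit left of 0 and most ERAD genes right of it, and the crosses lie farther from 0 for 45 of the 46 filled circles.

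Among the folding genes, BiP fell with the TLR7 agonist and with peptide alone. Hspa5 (chromosome 2, 34771970 to 34777547, plus strand, GRCm38) was at 636, 583, 701 and 508 CPM in the TLR7 libraries at 72 h, against 1415, 1436, 895 and 1123 CPM at 24 h. Every 72 h library was below every 24 h one, a log2 fold change of -1.0 (SE 0.2, adjusted p = 0.00129). With peptide alone the 4 libraries stood at 603, 574, 491 and 889.7 CPM at 72 h, against 963, 1567, 863 and 1169 CPM at 24 h. Here the middle library 72 h replicate 4 lay above the middle library 24 h replicate 3, and the log2 fold change was -0.83 (SE 0.2, adjusted p = 0.0333). With the TLR2 agonist the values were 993, 1046, 1186 and 1089 CPM at 72 h, against 1363, 1710.3, 1307 and 1429 CPM at 24 h, again with no overlap, but -0.43 (adjusted p = 0.0827) did not pass.

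Calr, the soluble lectin chaperone of newly made glycoproteins, fell in all 3 cultures. It was at 501, 442, 526 and 392 CPM with TLR7 at 72 h, against 1176, 1148, 781 and 909 CPM at 24 h, a log2 fold change of -1.11 (SE 0.21, adjusted p = 0.000994). With TLR2 it stood at 905, 721, 1049 and 841 CPM at 72 h, against 1299.9, 1362, 1278 and 1373 CPM at 24 h, a change of -0.6 (SE 0.21, adjusted p = 0.0304). In the OVA cultures the values were 513, 467, 488 and 832 CPM at 72 h, against 828, 1495, 786 and 1198 CPM at 24 h, with -0.9 (adjusted p = 0.0333). The groups did not overlap with either agonist and overlapped with peptide alone, where 72 h replicate 4 was above 24 h replicates 1 and 3, all middle libraries. Canx, its membrane-bound relative, fell with TLR7, -0.8 (adjusted p = 0.00447), and with TLR2, -0.54 (adjusted p = 0.0364). With OVA Canx was at -0.56 (adjusted p = 0.0519).

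The disulfide isomerases did not move as one. Pdia3, which works with calreticulin and calnexin, averaged 417 ± 17.3 CPM with TLR7 at 72 h and 635 ± 95.9 CPM at 24 h (SD, n = 4 each). It fell with TLR7, -0.6 (adjusted p = 0.026), and also with TLR2, -0.62 (adjusted p = 0.0277), and OVA, -0.75 (adjusted p = 0.0333). Pdia6 averaged 148 ± 20.2 CPM at 72 h and 251 ± 53.2 CPM at 24 h with TLR7, and its log2 fold change was -0.76 (adjusted p = 0.00862) with TLR7, -0.72 (adjusted p = 0.017) with TLR2 and -1.0 (adjusted p = 0.0333) with OVA. P4hb, also a subunit of prolyl hydroxylase, passed in no culture. It averaged 624 ± 90.6, 736 ± 41.2 and 657 ± 151 CPM at 72 h in TLR7, TLR2 and OVA, against 679.7 ± 13.8, 762 ± 27.9 and 719 ± 72.9 CPM at 24 h. Its log2 fold changes were -0.12, -0.05 and -0.13, each with an SE of 0.14. Pdia4 (-0.23, -0.37 and -0.41 with TLR7, TLR2 and OVA) and Hsp90b1, the ER form of HSP90 (-0.31, -0.31 and -0.46), had negative values in each and passed in none. The oxidase gene Ero1lb, at 10.6 to 13.9 CPM in TLR7 at 72 h, had 0.44, -0.25 and 0.29.

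The co-chaperones and secreted factors fell most widely, with 5 of 7 members down and 0 up in each culture. Dnajb11 encodes ERdj3, which hands substrates to BiP. With TLR7 its libraries stood at 55.6, 60.9, 57.9 and 64 CPM at 72 h, against 182, 184, 119 and 120.4 CPM at 24 h, all 4 below all 4, and the log2 fold change was -1.34 (SE 0.26, adjusted p = 0.00118). The values with TLR2 were 127, 68.3, 139 and 120.1 CPM at 72 h, against 208, 214, 208 and 214 CPM at 24 h, a change of -0.89 (SE 0.26, adjusted p = 0.0155). TLR2 replicate 2, the library at 72 h that is not a middle one, was the lowest. For OVA, 67.7, 75, 88.3 and 135 CPM at 72 h, against 116, 253, 114 and 198 CPM at 24 h, gave -0.9 (adjusted p = 0.0341).

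Creld2, a secreted ER stress-induced factor, and Hyou1, a large HSP70 relative that exchanges nucleotide on BiP, also fell in each culture. Creld2 averaged 19.4 ± 3.04, 32.8 ± 9.9 and 25.8 ± 9.92 CPM at 72 h with TLR7, TLR2 and OVA, against 39.8 ± 8.97, 64.3 ± 8.9 and 48.8 ± 17.5 CPM at 24 h. Its log2 fold changes were -1.04 (adjusted p = 0.00611), -0.97 (adjusted p = 0.0131) and -0.92 (adjusted p = 0.0344). Hyou1 had -1.07 (adjusted p = 0.00245), -0.64 (adjusted p = 0.0387) and -0.96 (adjusted p = 0.0333) in the same order.

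Sdf2l1, part of a BiP and ERdj3 complex, fell with TLR2, -0.97 (SE 0.26, adjusted p = 0.0114), and OVA, -1.14 (SE 0.26, adjusted p = 0.0333). With TLR7 it stood at 20.7, 18.6, 16.8 and 17.3 CPM at 72 h, against 24.2, 23.8, 20.2 and 21.1 CPM at 24 h, -0.28 (adjusted p = 0.378). Manf, a secreted factor that binds BiP, had -0.59 (adjusted p = 0.0336) with TLR2 and -0.67 (adjusted p = 0.0384) with OVA, and -0.33 (adjusted p = 0.2) with TLR7. Neither gene passed the test of the difference between the TLR7 and OVA time changes, whose values come with the agonist comparisons. Dnajb9 (ERdj4) and Dnajc3 (P58IPK, which restrains PERK) passed with TLR7, at -1.27 (adjusted p = 0.0107) and -0.48 (adjusted p = 0.00888). Their values of -0.52 and -0.31 with TLR2, and -0.5 and -0.1 with OVA did not pass.

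Of the 5 sensor genes and factors, 3 rose with TLR2, and 1 rose and 1 fell with TLR7. Xbp1 (chromosome 11, 5520659 to 5525893, plus strand, GRCm38) was at 203, 190.5, 218 and 201 CPM with TLR7 at 72 h, against 67.5, 67.3, 123 and 147 CPM at 24 h, and rose by 1.01 (SE 0.27, adjusted p = 0.00665) on the log2 scale. With TLR2 it was at 129, 238, 141 and 135 CPM at 72 h, against 78.5, 88.6, 73.6 and 73.3 CPM at 24 h, and also rose, 1.03 (SE 0.27, adjusted p = 0.0101). With OVA the values were 190.3, 188, 149.5 and 116 CPM at 72 h, against 139, 82.6, 135 and 65 CPM at 24 h. These overlapped, and 0.61 (adjusted p = 0.0966) did not pass.

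Eif2ak3 differed widely between libraries of one group. At 24 h it was at 16.2 to 18.9 CPM in the TLR2 libraries, and at 15.3 to 15.5 CPM in TLR7 and 14.1 to 16.6 CPM in OVA libraries that were not middle ones, but at 49.8 to 81.2 CPM in the 4 middle libraries of those groups. At 72 h it stood at 83.6, 87.5, 113 and 80.1 CPM with TLR7, 76.2, 128, 70.5 and 71.7 CPM with TLR2 and 85.6, 99, 162 and 48.7 CPM with OVA. The time change was 2.35 (SE 0.53, adjusted p = 0.00795) with TLR2, whose 24 h group holds no middle library. It was 1.07 (adjusted p = 0.0927) with TLR7 and 1.28 (adjusted p = 0.0742) with OVA, and 2.57 (adjusted p = 5.6e-07) and 2.9 (adjusted p = 3.89e-07) without the middle libraries. Eif2ak3 shares 485 bases of exon with another gene, and whether the counting used strand is not stated, so its level is uncertain.

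Ern1 rose with time in the TLR2 cultures, at 6.33, 11.7, 9.79 and 10.7 CPM at 72 h, against 4.89, 6.16, 4.93 and 5.28 CPM at 24 h (0.86, adjusted p = 0.0369). With TLR7 it was at 19.2, 15.8, 12.5 and 12.5 CPM at 72 h, against 12.9, 8.77, 9.86 and 11.4 CPM at 24 h (0.48, adjusted p = 0.212). Atf6 (chromosome 1, 170704674 to 170867771, minus strand) fell with TLR7. Its libraries stood at 80, 80.2, 87.1 and 82.7 CPM at 72 h, against 196, 197, 132 and 138 CPM at 24 h, a log2 fold change of -1.0 (SE 0.18, adjusted p = 0.000906). It was 109.7 ± 19.3 CPM at 72 h and 108 ± 23.5 CPM at 24 h with TLR2 (0.022, adjusted p = 0.932), and 69.3 ± 16.3 and 81.7 ± 7.68 CPM with OVA (-0.24, adjusted p = 0.326). Atf6b, its relative, passed in no culture, at -0.5, -0.52 and -0.59 with TLR7, TLR2 and OVA.

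**Figure D3:**
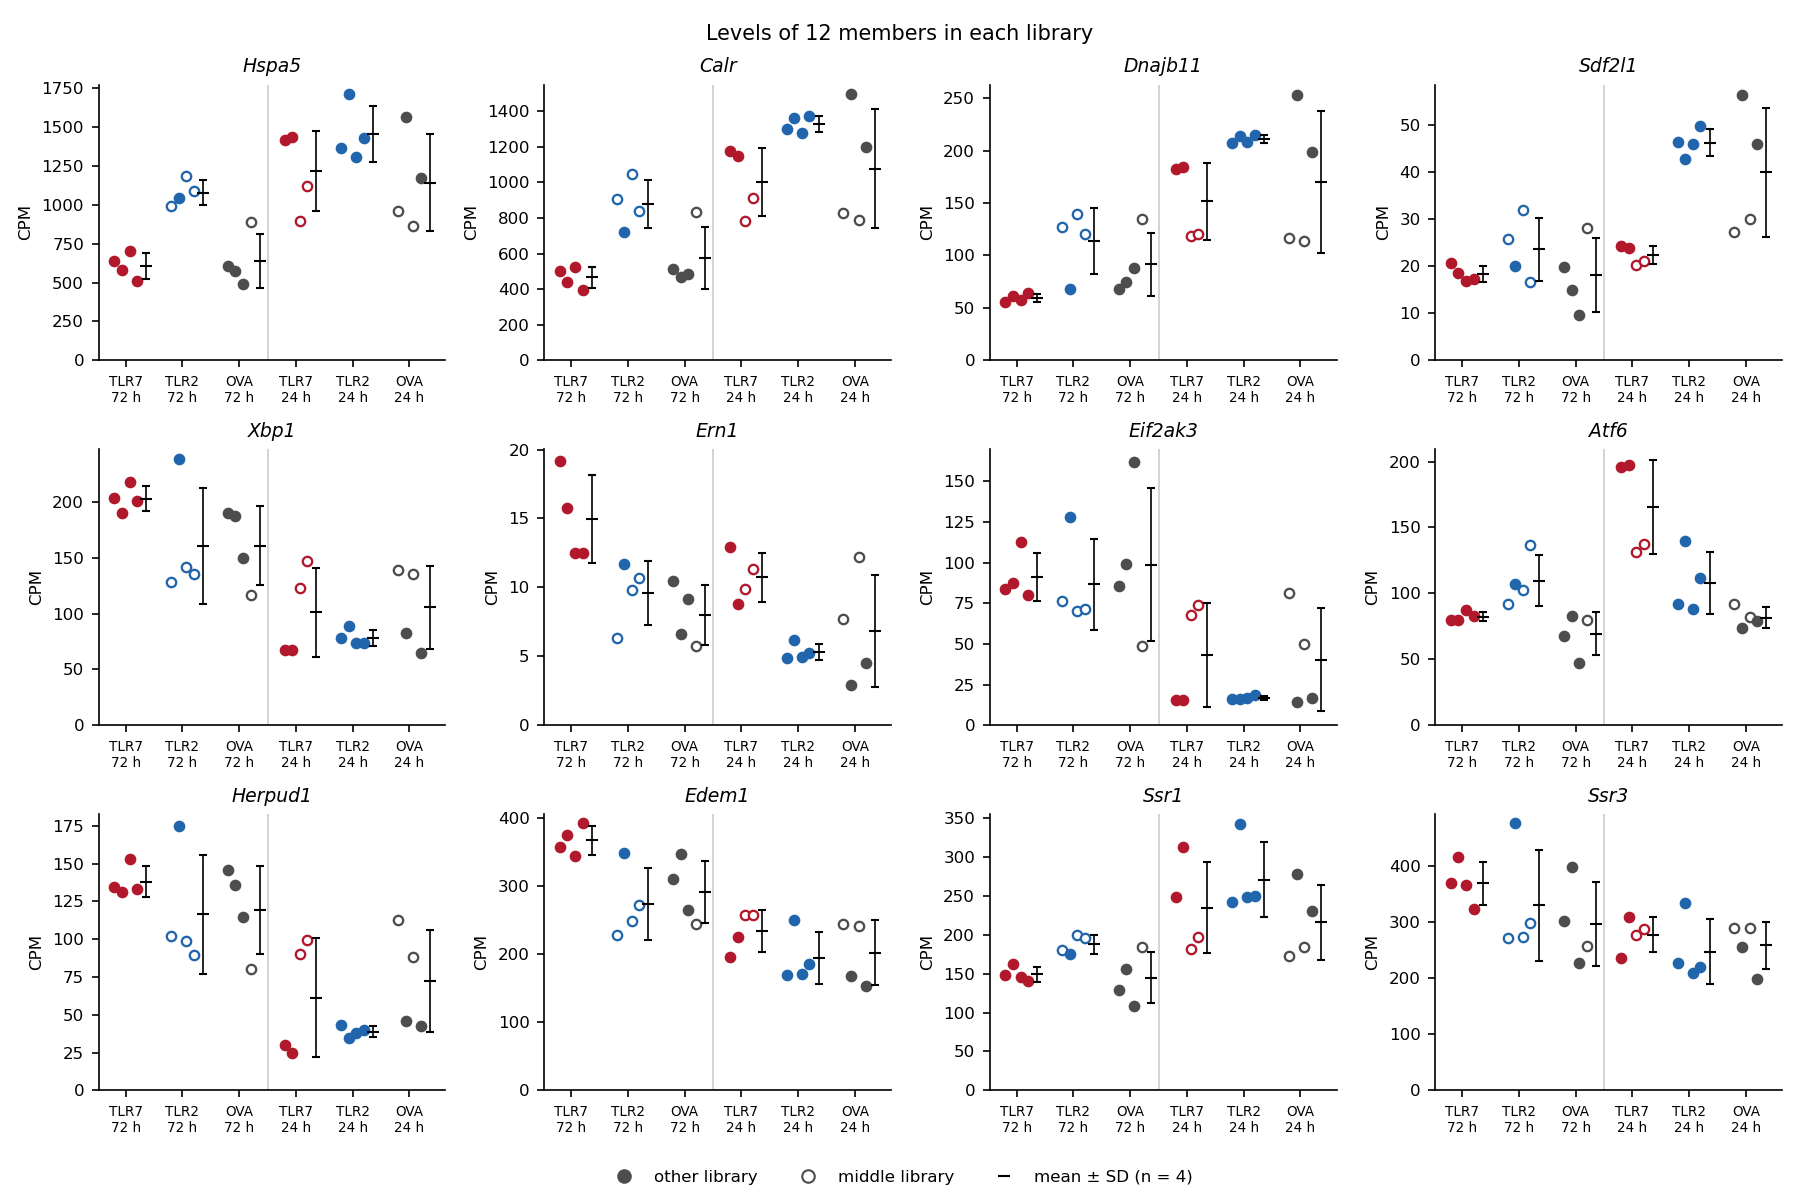
CPM (y axes, from 0) of 12 members in each library by agent and time (x axis), with open points for the middle libraries and bars for mean ± SD, n = 4. Hspa5, Calr and Dnajb11 sit higher at 24 h, Xbp1, Eif2ak3 and Herpud1 higher at 72 h, and Atf6 has its highest group mean in TLR7 at 24 h, with 1 TLR2 library at 24 h above 2 of the TLR7 ones.

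Of the 7 ERAD members 0 passed as lower. Edem1, which picks out misfolded glycoproteins for degradation, rose in each culture, by 0.65 (SE 0.18, adjusted p = 0.00719) with TLR7, 0.5 (SE 0.18, adjusted p = 0.0324) with TLR2 and 0.53 (SE 0.18, adjusted p = 0.0429) with OVA. It was at 357, 376, 345 and 394 CPM with TLR7 at 72 h, against 195, 226, 258 and 258 CPM at 24 h, without overlap. Herpud1, an ER membrane protein that organises the ERAD complex around the ligase HRD1 (Syvn1), was at 135, 131, 153 and 133 CPM with TLR7 at 72 h, against 29.9, 24.6, 90.4 and 99.8 CPM at 24 h, and rose (1.17, SE 0.37, adjusted p = 0.0171). With TLR2 it was at 102, 175, 99 and 89.4 CPM at 72 h, against 43.5, 34.4, 38.2 and 39.6 CPM at 24 h, and also rose (1.58, SE 0.38, adjusted p = 0.00831). In the OVA cultures 146, 136, 115 and 80.1 CPM at 72 h overlapped 112, 45.6, 88.3 and 42.8 CPM at 24 h (0.72, adjusted p = 0.147), through 1 middle library at 72 h and 2 at 24 h.

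Sel1l, the partner of HRD1, rose with TLR2 (0.68, adjusted p = 0.0202) and OVA (0.62, adjusted p = 0.0467) and was at 0.28 (adjusted p = 0.271) with TLR7. Derl1, a channel-like Derlin protein, rose with TLR7 (0.33, adjusted p = 0.0242), at 122 to 139 CPM at 72 h, against 103 to 108 CPM at 24 h. Syvn1 itself lay between -0.0009 and 0.26, and Derl2 between -0.12 and -0.016, in the 3 cultures. Derl3, the lowest member, had positive values of 0.72 to 0.89 that did not pass, at group means of 0.619 to 1.69 CPM, against 0.11 to 0.286 CPM for 3 counts.

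With TLR7, Herpud1 passed as higher and Hspa5 as lower at 72 h; their ratio within a library does not depend on how libraries are scaled. Per 100 Hspa5 counts there were 21.2 to 26.3 Herpud1 counts with TLR7, 8.21 to 16.7 with TLR2 and 9.01 to 24.1 with OVA at 72 h. At 24 h there were 1.71 to 10.1 with TLR7, 2.01 to 3.19 with TLR2 and 2.91 to 11.7 with OVA. The middle libraries of the 2 times overlapped, at 8.21 to 10.3 at 72 h and 8.89 to 11.7 at 24 h. The other libraries stood apart, at 16.7 to 26.3 at 72 h and 1.71 to 3.66 at 24 h. The gene pair and the middle libraries were both picked from these same data. This separation is thus largely built into the choice and is a description only.

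**Figure D4:**
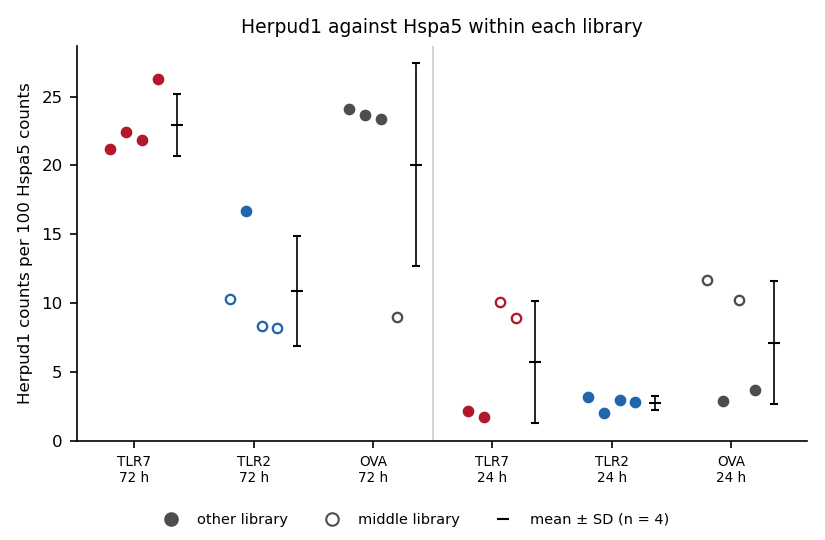
Herpud1 counts per 100 Hspa5 counts (y axis) in each library by agent and time (x axis); open points are middle libraries and bars mean ± SD. The filled points at 72 h (16.7 to 26.3) stand well above those at 24 h (1.71 to 3.66), and the open points of both times lie at 8.21 to 11.7. The genes and the middle libraries were picked from these same data, so this separation is a description only.

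In the translocon group, the pore genes passed in no culture and 2 translocon-associated proteins fell. Sec61a1, the pore subunit, had -0.2, -0.23 and -0.25 with TLR7, TLR2 and OVA, and Sec61b -0.11, -0.3 and -0.22; neither passed. Ssr1, which helps weakly inserting signal sequences, averaged 149 ± 9.53 CPM at 72 h and 235 ± 59 CPM at 24 h with TLR7, and fell in each culture, with log2 fold changes of -0.66 (adjusted p = 0.00933), -0.53 (adjusted p = 0.0317) and -0.58 (adjusted p = 0.04) with TLR7, TLR2 and OVA. Ssr2, a subunit of the same complex, fell with TLR7 (-0.44, adjusted p = 0.0361) and TLR2 (-0.43, adjusted p = 0.0437). Ssr3, also of that complex, had positive values of 0.41, 0.41 and 0.2 with TLR7, TLR2 and OVA and passed in none. Hsp90b1, Sec61a1, Manf, Ssr2 and Derl2 overlap exons of other genes by 231 to 632 bases and are uncertain for the reason given with Eif2ak3.

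The time results rest on particular libraries in different ways. Without the 8 middle libraries all 46 called time changes kept their sign. Of these, 45 were larger, with a median size of 1.20 against 0.82 on the log2 scale. The middle libraries were picked for lying between the 2 times in these same data. Larger changes without them are therefore built into that choice. Without the 5 shallow libraries the median size was 0.82 again, but 0 members passed with TLR7 or OVA and 6 with TLR2. Of all 14949 genes in that fit, 5 passed with TLR7, 0 with OVA and 2847 with TLR2. The loss of calls was therefore not particular to the members. With OVA, 0 members passed without 72 h replicate 2 or 3 or without 24 h replicate 2 or 4, 1 without 72 h replicate 1, and 19 without 72 h replicate 4. With TLR2, 2 passed without 72 h replicate 2, 8 without 24 h replicate 1 or 4, 9 without 72 h replicate 4 and 10 without 72 h replicate 1. With TLR7 the count ran from 12 to 18 whichever library was left out. Counts of all genes are not given for the fits with 1 library left out, so these shifts are not read as particular to the members.

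Markers of other spleen cells differed between times as well. Summed over 10 B cell markers, the group means were 15.1, 53.5 and 28.8 CPM with TLR7, TLR2 and OVA at 72 h, against 38.0, 138 and 165 CPM at 24 h, with 10 of 10 detected in every group. The libraries ranged from 12.2 to 18.6, 10.03 to 99.98 and 6.63 to 47.7 CPM at 72 h, against 26.9 to 48.7, 123 to 166 and 102 to 255 CPM at 24 h. Fcmr went the other way with TLR7, at 6.7 CPM at 72 h, against 0.578 CPM at 24 h. Over 8 plasma cell markers they were 232, 505 and 623 CPM at 72 h, against 568, 746 and 722 CPM at 24 h, most of it from Ighm and Igkc. The libraries ranged from 179 to 318, 346 to 619 and 415 to 845 CPM at 72 h, against 482 to 631, 718 to 796 and 441 to 1029.6 CPM at 24 h. Tnfrsf17 was at 0 in TLR7 at 72 h and at 0.05 CPM or less elsewhere, and Jchain averaged 0.11 CPM in TLR7 at 72 h, against 18.7 CPM at 24 h. Prdm1, which effector T cells also express, averaged 38.1 CPM with TLR7 and 35.9 CPM with TLR2 at 72 h, against 16.7 CPM with TLR7 and 4.92 CPM with TLR2 at 24 h. With OVA, Sdc1 averaged 8.47 CPM and Ighm 541 CPM at 72 h, against 4.54 and 482 CPM at 24 h. Antibody-secreting cells are rich in ER chaperones, and the part of such cells in these results was not tested. In bulk RNA, fewer cells of a type and less RNA per cell cannot be told apart.

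The agonists moved few members. At 24 h, TLR2 against OVA gave 0 members of 33 past the edgeR threshold, as it did 0% of all genes. DESeq2 also called 0 members there, with 345 genes in all, and at an unadjusted edgeR p under 0.05 there were 3 members and 2211 genes. All 33 members overlapped between these groups, where 6.13% of all genes did not overlap.

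TLR7 against OVA at 24 h gave 1 member, Atf6, where 0.22% of all genes passed. Atf6 was at 196, 197, 132 and 138 CPM in the TLR7 libraries, against 91.9, 73.5, 81.9 and 79.4 CPM in the OVA libraries. The lowest TLR7 library was above the highest OVA library, and the log2 fold change was 1.02 (SE 0.18, adjusted p = 0.0283). Both TLR7 libraries that are not middle ones were higher than both middle ones, and the difference was 1.41 (adjusted p = 0.0154) without the 8. It kept a similar size without the 5 shallow libraries, 0.91, but did not pass (adjusted p = 0.789), nor did it in a fit of these 2 groups alone (adjusted p = 0.0967). In each of these 2 fits 0 of all genes passed for TLR7 against OVA at 24 h, so Atf6 was not alone in this. Leaving out 1 library at a time, Atf6 passed without either middle TLR7 library and in 0 of the other 6 cases, among which the log2 fold change was 0.93 to 1.08. Over all alternatives the adjusted p ran from 0.00022 to 0.79.

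The sensor Ern1 did not pass. It stood at 12.9, 8.77, 9.86 and 11.4 CPM with TLR7 at 24 h, against 7.67, 2.95, 12.2 and 4.51 CPM with OVA, a log2 fold change of 0.64 (adjusted p = 0.496). The fit without the middle libraries leaves 2 TLR7 libraries, at 12.9 and 8.77 CPM, and 2 OVA libraries, at 2.95 and 4.51 CPM, and the difference there was 1.61 (adjusted p = 0.0189). Against TLR2, at 4.89, 6.16, 4.93 and 5.28 CPM, every TLR7 library was higher, with 1.02 (SE 0.31, adjusted p = 0.0892). Atf6 stood at 92.2, 139.9, 88.6 and 112 CPM with TLR2 at 24 h, overlapping the TLR7 libraries (0.62, SE 0.18, adjusted p = 0.0809).

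TLR7 against TLR2 at 24 h gave 1 member, Sdf2l1, where 1.24% of all genes passed. Its libraries stood at 24.2, 23.8, 20.2 and 21.1 CPM with TLR7, against 46.4, 42.7, 46 and 49.8 CPM with TLR2. The TLR7 libraries all lay below the TLR2 ones, with a log2 fold change of -1.05 (SE 0.26, adjusted p = 0.0487). The call is marginal: without the middle libraries it was -0.89 (adjusted p = 0.0908), and in 11 of 16 alternatives it did not pass (adjusted p 0.0065 to 0.15). The member that passed without the middle libraries was Atf6, at 0.92 (adjusted p = 0.0496). Sdf2l1 was lower also than OVA, at 27.3, 56.3, 30 and 46 CPM, without passing (-0.84, SE 0.26, adjusted p = 0.182). In all, 9 members lay wholly lower with TLR7 than with TLR2 at 24 h and 2 wholly higher, the 9 being Hsp90b1, Calr, Pdia3, Pdia4, Pdia6, P4hb, Dnajb11, Sdf2l1 and Manf and the 2 Ern1 and Derl1. Over all genes, 14% did not overlap, 801 higher and 1239 lower with TLR7.

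At 72 h, TLR7 stood below TLR2 for BiP, calreticulin and ERdj3. These 3 of 33 members passed, all lower, where 4.8% of all genes passed. Hspa5 was at 636, 583, 701 and 508 CPM with TLR7, against 993, 1046, 1186 and 1089 CPM with TLR2, a log2 fold change of -0.83 (SE 0.2, adjusted p = 0.0256). Calr was at 501, 442, 526 and 392 CPM with TLR7, against 905, 721, 1049 and 841 CPM with TLR2 (-0.92, SE 0.21, adjusted p = 0.0216). Dnajb11 was at 55.6, 60.9, 57.9 and 64 CPM with TLR7, against 127, 68.3, 139 and 120.1 CPM with TLR2 (-0.93, SE 0.26, adjusted p = 0.0436). For each of these genes all 4 TLR7 libraries lay below all 4 TLR2 libraries.

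The 3 calls rest on the TLR2 group, in which 3 of 4 libraries are middle ones. Against TLR2 replicate 2 alone the log2 fold change was -0.75 for Hspa5, -0.6 for Calr and -0.16 for Dnajb11. With 1 TLR2 library these are effect sizes only, and no call or loss of a call is read from them. The summed B cell and plasma cell markers given above were also lower with TLR7 than with TLR2 at 72 h, and their part was not tested. For Dnajb11 replicate 2, at 68.3 CPM, stood near the TLR7 libraries. Without TLR2 replicate 2, 8 members passed (2 up, 6 down). Without any one of TLR2 replicates 1, 3 and 4 or TLR7 replicates 1, 2 and 4, 0 passed, as without the 5 shallow libraries, and 2 passed without TLR7 replicate 3. Counts of all genes with 1 library left out are not given here either. Without the shallow libraries 0 of all 14949 genes passed in this comparison. In a fit of these 2 groups alone 14 members passed, all lower with TLR7, where 3302 of 13304 genes passed in all.

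Against OVA at 72 h, 0 members passed with either agonist, where 0% of all genes passed for TLR2 and 3.62% for TLR7. With TLR2, 7 members and 1693 genes were under an unadjusted edgeR p of 0.05, and DESeq2 called 1 member and 82 genes. That member was Hspa5, at 993, 1046, 1186 and 1089 CPM with TLR2, against 603, 574, 491 and 889.7 CPM with OVA (0.75, SE 0.2, adjusted p = 0.199; DESeq2 adjusted p = 0.0421). Every TLR2 library was above every OVA library for 3 members, Hspa5, Hsp90b1 and Atf6, where 4.62% of all genes did not overlap. Leaving out OVA replicate 4, a middle library with the highest Hspa5, Calr and Dnajb11 of its group, gave 5 members as higher with TLR2, which were Hspa5, Calr, Pdia6, Hyou1 and Atf6. The count of all genes in that fit is not given here, so the 5 are not read as particular to the members.

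With TLR7, 4 members and 2721 genes were under an unadjusted p of 0.05, and DESeq2 called 1 member and 934 genes. That was Ern1, at 19.2, 15.8, 12.5 and 12.5 CPM with TLR7, against 10.4, 6.63, 9.19 and 5.78 CPM with OVA (0.9, SE 0.31, adjusted p = 0.11; DESeq2 adjusted p = 0.043), with no overlap. Xbp1, whose messenger RNA the Ern1 product splices, was also wholly higher with TLR7 than with OVA, by 0.34 (SE 0.27, adjusted p = 0.552). Dnajb11 and Dnajc3 were wholly lower with TLR7 than with OVA, at -0.62 (adjusted p = 0.189) and -0.38 (adjusted p = 0.116). The other 29 members overlapped, and 8.7% of all genes did not overlap. Without OVA replicate 1, Ern1 and Derl1 passed as higher with TLR7, and the count of all genes in that fit is likewise not given.

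**Figure D5:**
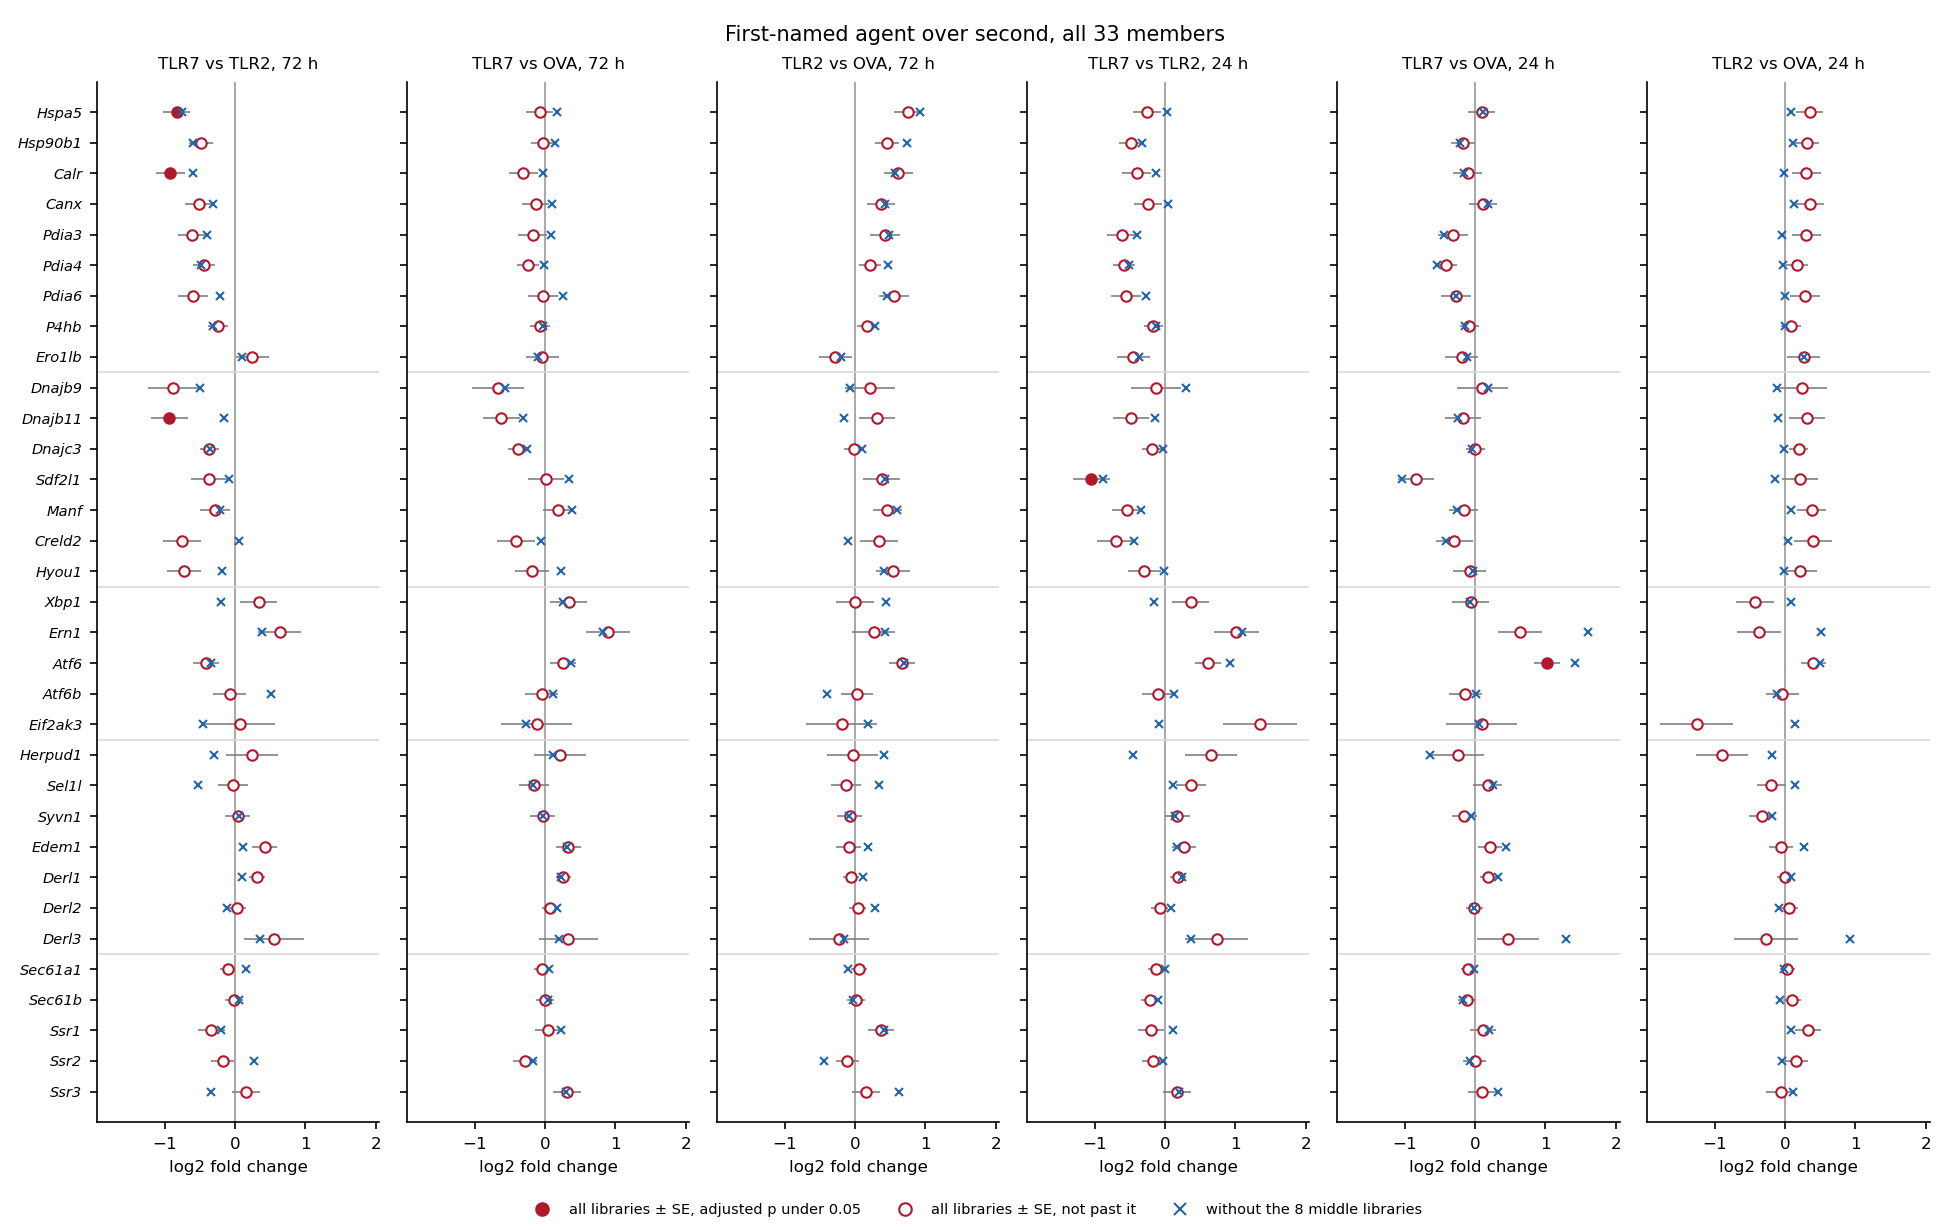
Log2 fold change (x axes) of the first-named agent over the second for the 33 members (y axis) at 72 h (left 3 panels) and 24 h (right 3 panels), with the same symbols as for the time changes. The filled circles are Hspa5, Calr and Dnajb11 for TLR7 over TLR2 at 72 h, Sdf2l1 for TLR7 over TLR2 at 24 h and Atf6 for TLR7 over OVA at 24 h.

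The agonist comparisons at one time share their OVA, TLR2 or TLR7 libraries, so their values are not independent of each other. The 2 differences between times were tested directly. For the TLR2 effect at 72 h minus that at 24 h, 0 of 33 members passed, as did 0% of all genes, with 0 members and 919 genes at an unadjusted edgeR p under 0.05 and 0 members and 2 genes by DESeq2. For the TLR7 effect, 0 members passed, where 0.81% of all genes did, with 2 members and 2323 genes unadjusted and 0 members and 457 genes by DESeq2. The 2 were Atf6, with a difference of -0.77 (SE 0.26, adjusted p = 0.142), and Sdf2l1, with 0.85 (SE 0.37, adjusted p = 0.258). Manf had 0.34 (adjusted p = 0.623). The TLR7 effect on Atf6 was 0.25 at 72 h and 1.02 at 24 h, and that on Sdf2l1 was 0.017 at 72 h and -0.84 at 24 h.

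Members with an ERSE in the promoter were set beside the other members over time. With TLR7, 6 of the 10 members with the element passed as lower at 72 h and 0 as higher, at a median log2 fold change of -0.62. Of the 17 members with an entry and without an exact match, 3 were higher and 4 lower (median -0.11), and of the 6 with no entry 1 was higher and 3 lower. With TLR2, 0 higher and 4 lower of the 10 stood against 6 higher and 4 lower of the 17, and with OVA 0 higher and 4 lower stood against 2 higher and 4 lower. Syvn1 and Derl3, the ERAD genes that hold the element, passed in no time comparison. Of all 14560 genes, 2767 were higher and 3521 lower with TLR7, 3154 and 2527 with TLR2, and 1190 and 1519 with OVA. No test of the split by ERSE was made, and it runs close to the split by role. Of the 10, Hspa5, Hsp90b1, Calr, Canx, Pdia6 and Ero1lb are folding genes, and Dnajc3 and Creld2 are co-chaperones or secreted factors. Among members of these roles with an entry and no exact match, Pdia3 and Dnajb11 passed as lower in each culture. Sdf2l1 did so in 2 cultures, Dnajb9 in 1, and Pdia4 and P4hb in none.

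Over all 14560 genes, 2767 were higher and 3521 lower at 72 h with TLR7, 3154 and 2527 with TLR2, and 1190 and 1519 with OVA, and the lists that follow are to be read beside these counts. A list of 18 genes was taken for ATF4 and CHOP, the factors downstream of PERK. Of these, 7 were higher and 3 lower at 72 h with TLR7, 13 higher and 1 lower with TLR2, and 2 higher and 1 lower with OVA. The median log2 fold changes were 1.27, 1.88 and 0.91. PERK activity was not measured, and its part in these changes was not tested. That is 55.6%, 77.8% and 16.7% of the 18, against 43.2%, 39% and 18.6% of all genes, so the share with OVA was no higher than that of all genes. For the genes described next, the log2 changes with TLR7 without the middle libraries were 2.8 for Asns, 2.03 for Sesn2, 4.78 for Chac1 and -1.7 for Eif2s1. Larger sizes are built into the choice of those libraries. Asns, asparagine synthetase, averaged 289 ± 34.3 CPM with TLR7 at 72 h and 106 ± 77.8 CPM at 24 h (SD, n = 4 each), which is a log2 change of 1.44 (adjusted p = 0.0375). Sesn2, a stress-induced regulator of mTORC1, averaged 90.4 ± 6.94 CPM at 72 h and 34.7 ± 14.6 CPM at 24 h (1.38, adjusted p = 0.011). Chac1, a glutathione-degrading enzyme, stood at 15 ± 1.22 CPM at 72 h and 3.58 ± 3.49 CPM at 24 h. Eif2s1, the translation factor subunit that PERK phosphorylates, fell to 169.8 ± 21.7 CPM at 72 h, against 431 ± 149 CPM at 24 h (-1.34, adjusted p = 0.00506).

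Between agonists at 24 h, 5 of these 18 were higher with TLR7 than with TLR2, where 1.24% of all genes passed. Trib3, a pseudokinase induced by CHOP, averaged 35.8 ± 38.6 CPM with TLR7 and 1.9 ± 0.225 CPM with TLR2 (4.24, adjusted p = 0.0472), with an SD above its mean in TLR7. Without the middle libraries the difference was 0.88 (adjusted p = 0.232), and 2 of the 18 passed. Nupr1, a small stress-induced chromatin protein, averaged 8.2 ± 9.09 CPM with TLR7 and 0.291 ± 0.0887 CPM with TLR2, near the level of 3 counts. Its log2 fold change was 4.85 (adjusted p = 0.0274) with the middle libraries and 2.77 without them (adjusted p = 0.00944).

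The other ER lists held genes that rose and genes that fell with time. Of 23 other folding, oxidation and glycan-trimming genes, 4 were higher and 4 lower at 72 h with TLR7, 5 and 5 with TLR2, and 1 and 3 with OVA. Ero1l, the main ER oxidase and a hypoxia-induced gene, rose to 893 ± 147 CPM with TLR7 at 72 h, against 336 ± 157 CPM at 24 h (1.41, adjusted p = 0.0211). Sil1, a nucleotide exchange factor of BiP, rose with TLR7 by 1.15 (adjusted p = 0.00264), while the member Hyou1 of the same function fell. Mogs, the glucosidase that trims the first sugar of new glycans, fell with TLR7 (-1.48, adjusted p = 0.00497).

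Of 22 other ERAD genes, 6 were higher and 7 lower with TLR7, 5 and 3 with TLR2, and 4 and 1 with OVA. Edem2, a mannosidase that marks glycoproteins for ERAD, rose to 91.5 ± 12.7 CPM with TLR7 at 72 h, against 31.2 ± 12.9 CPM at 24 h (1.54, adjusted p = 0.00148). Its relative Edem3 fell (-1.42, adjusted p = 0.00038), as did Vcp, the ATPase that pulls proteins out of the membrane (-1.27, adjusted p = 0.00173). At 72 h Edem3 was also lower with TLR7 than with TLR2 (-0.85, adjusted p = 0.0291) and than with OVA (-0.79, adjusted p = 0.039). Without the middle libraries these values were -0.73, against 1 TLR2 library, and -0.69 (adjusted p = 0.121), of similar size but with fewer libraries.

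For 30 other translocation, signal peptidase and glycosylation genes the counts were 3 higher and 10 lower with TLR7, 1 and 9 with TLR2, and 1 and 3 with OVA. Sec11c, a signal peptidase subunit, rose with TLR7 (1.1, adjusted p = 0.00874), and Srpr, the receptor of the signal recognition particle, fell (-1.1, adjusted p = 0.00136). ER to Golgi transport genes, 25 in all, gave 3 higher and 10 lower with TLR7, 6 and 4 with TLR2, and 4 and 4 with OVA. Kdelr1, which returns BiP and other lumenal proteins from the Golgi, rose by 0.89 (adjusted p = 0.00714) with TLR7. Among 13 other genes of the sensor pathways, 2 were higher and 4 lower with TLR7, 4 and 3 with TLR2, and 1 and 1 with OVA. Mbtps1, the protease that makes the first cut in ATF6, rose with TLR2 (0.42, adjusted p = 0.0308) and OVA (0.54, adjusted p = 0.0333).

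Of 30 cytosolic and mitochondrial chaperone genes, 0 were higher and 22 lower with TLR7, 4 and 19 with TLR2, and 0 and 18 with OVA, at median log2 fold changes of -0.85, -0.63 and -0.67. That is 73.3%, 76.7% and 60.0% of the 30, against 43.2%, 39% and 18.6% of all genes. The medians of the 9 ER folding members were -0.60, -0.43 and -0.56, and no test set the lists against each other. Hspd1, the mitochondrial HSP60, fell to 472 ± 49.7 CPM with TLR7 at 72 h, against 2529 ± 953 CPM at 24 h (-2.42, adjusted p = 0.00131). Of the same list, 4 were lower with TLR7 than with TLR2 at 72 h and 0 higher, where 4.8% of all genes passed. Among the 4, Hsph1, Hspd1 and Dnaja1 had log2 fold changes of -1.72, -1.7 and -1.02. Without the middle libraries, against 1 TLR2 library, the values were -0.71, -0.084 and -0.4, and no call is read from them. The 4 that rose with TLR2 included Hspa1a, the inducible HSP70, at 25.2 ± 4.32 CPM at 72 h and 0.151 ± 0.128 CPM at 24 h; its near-identical copy Hspa1b makes its level uncertain. Without the 5 shallow libraries, 0 genes of these other lists passed over time with TLR7 or OVA, where 5 and 0 of all 14949 genes passed.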

How the data were processed

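A stranded poly-A kit was used for the 24 libraries, per the labels' protocols. The values deposited by the authors are unscaled expected counts, with 28.7% of values above 0 not whole. STAR, RSEM, edgeR and build GRCm38 come from the submitters' processing notes; tool versions and strand setting: not given in the sources used here. Of the 33 members, 21 had counts that were not whole in some library.

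Expected counts were rounded and tested with edgeR 4.0.16 (R 4.3.3, limma 3.58.1): TMM, filterByExpr (minimum count 10, total 15), 1 quasi-likelihood model over 6 groups with 18 residual degrees of freedom, Benjamini-Hochberg over 14560 genes, threshold 0.05. The spread gave a common biological coefficient of variation of 0.321. Fitted were 9 comparisons of 2 groups and 2 differences. CPM use TMM-scaled totals, and log2 CPM a prior count of 2. A count of 3 is 0.11 to 0.286 CPM, counting error only. Motif searches and figures used Python 3.11.15, pandas 2.3.3 and matplotlib 3.10.9. Positions and exon lengths are from GENCODE M21.

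The members and lists were chosen with earlier results of these data known. All members are named; of the other lists, at most 3 genes each way per comparison, those past the threshold that changed most and averaged 5 CPM or more in 1 of the groups. The markers covered 9 cell types; those of macrophages, dendritic, CD4 T, NK, neutrophil and erythroid cells summed to 4.36 to 21.4, 541 to 901, 18.3 to 28.7, 3.22 to 19.4, 0.144 to 31.6 and 0.435 to 4.76 CPM over the group means. The dendritic sum was mostly Ccr7 (402 to 886 CPM) and Batf3 (2.06 to 137 CPM), which T cells also express, with Zbtb46 at 5.04 CPM or less. Alternatives were RLE scaling, no filter, a stricter filter (50), a replicate block, DESeq2 1.42.0, a fit of only the groups compared, each library left out, and fits without the 8 middle or 5 shallow libraries. Protein features were not used here.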

Additional observations from a re-analysis of the deposited data

Results flagged for a closer look

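Within each group of 4 libraries, 21 of 204 member values and scores had 1 library whose gap to the nearest other was above Dixon's 95% critical share of the group's range; chance gives about 1 in 20. TLR2 24 h replicate 2 held 8 of them and TLR2 72 h replicate 2 held 6, and 2 lay in middle libraries.

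TLR2 24 h replicate 2 was high for Hsp90b1 (1488 CPM against 1095 to 1160 in the others), Canx (1049 against 744 to 773), Sel1l (109 against 82.4 to 85.6), Ssr1 (343 against 243 to 250) and Ssr3 (334 against 209 to 227). It was low for Creld2 (51.1 against 66.9 to 70.1), Syvn1 (15.5 against 23.2 to 24.1) and Ssr2 (143 against 199 to 202).

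TLR2 72 h replicate 2, the library of its group that is not a middle one, was high for Xbp1 (238 CPM against 129 to 141), Eif2ak3 (128 against 70.5 to 76.2), Herpud1 (175 against 89.4 to 102), Sel1l (209 against 118 to 132) and Ssr3 (477 against 272 to 297), and low for Ssr2 (104 against 148 to 151). In the same group Pdia4 was low in replicate 4 (97.4 CPM against 128 to 132).

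The remaining 6 were Calr in OVA 72 h replicate 4 (832 CPM against 467 to 513), Derl3 in OVA 72 h replicate 1 (2.69 against 0.774 to 1.1), Herpud1 in TLR7 72 h replicate 3 (153 against 131 to 135), Dnajc3 in TLR7 24 h replicate 2 (114 against 87.5 to 89.4), Atf6b in TLR7 24 h replicate 1 (47.1 against 30.4 to 31.7) and Eif2ak3 in TLR2 24 h replicate 4 (18.9 against 16.2 to 16.5).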

How the results depend on the processing

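Of the 51 called member values, 0 changed sign under any alternative. Still past the threshold were 48 with RLE scaling, 35 without a filter, 48 with a stricter one, 49 with the replicate block, 51 with DESeq2, 37 in fits of only the groups compared, 44 without the middle and 6 without the shallow libraries, and 239 of 408 with 1 library left out. The number of members called for TLR7 against TLR2 at 24 h was 1, and was 0 with RLE scaling, without a filter and with the replicate block, 4 with DESeq2, 3 with only the groups compared and 0 without the shallow libraries. It was also 1 without the middle libraries, but the gene was Atf6, higher with TLR7, in place of Sdf2l1. Of all genes, 1016 of 14560 passed there with DESeq2, 405 of 13023 with only the groups compared and 204 of 15815 without the middle libraries. DESeq2 gave 1 member each for TLR2 and TLR7 against OVA at 72 h. With only the groups compared there were 0 for TLR7 against OVA at 24 h, 14 for TLR7 against TLR2 at 72 h and 0 for OVA over time. Of all genes, 0 of 13385, 3302 of 13304 and 0 of 13472 passed in the same order. Without the middle libraries 2 members passed for TLR7 against OVA at 24 h and 22 for OVA over time. There 398 and 7673 of all 15815 genes passed. For TLR7 against TLR2 at 72 h that fit holds 1 TLR2 library and is not counted. Without the shallow libraries the counts were 0, 0 and 0. TLR2 over time gave 8 members without a filter, where 4045 of 26703 genes passed, and 6 without the shallow libraries. TLR7 over time gave 0 without the shallow ones. Of all 14949 genes in the fit without the shallow libraries, 0 passed between agents at either time. Over time 5 passed with TLR7, 2847 with TLR2 and 0 with OVA. The mean score's TLR2 effect at 72 h minus 24 h was 0.20 without the middle libraries and 0.12 with them. With 1 library left out the counts ran from 0 to 1 for TLR7 against OVA and against TLR2 at 24 h, 0 to 5 for TLR2 and 0 to 2 for TLR7 against OVA at 72 h, 0 to 8 for TLR7 against TLR2 at 72 h, 0 to 19 for OVA, 2 to 13 for TLR2 and 12 to 18 for TLR7 over time, and stayed at 0 for TLR2 against OVA at 24 h and both differences. The causes were not tested; a fit without libraries has fewer samples. Replicate numbers did not pair the libraries (correlations -0.616 to 0.525, 21 of 60 over 0.1); with the replicate block 14, 20 and 19 members passed over time for OVA, TLR2 and TLR7, 1 for TLR7 against OVA at 24 h and 3 for TLR7 against TLR2 at 72 h. Depth limits Derl3, the lowest member.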
